A study of Mus musculus with 6 samples.

Results

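The transcripts described here are 36 autophagy genes of mouse bone marrow-derived macrophages, chosen by name from 56691 gene rows: the initiation kinases, the PI3-kinase complex, the lipid transfer and PI3P-binding proteins, the LC3 conjugation enzymes, the LC3 and GABARAP proteins, and 4 cargo receptors. All 36 were matched by Ensembl identifier, and all 36 passed edgeR's filter on low counts, which left 14856 genes. Bone marrow-derived macrophages are primary phagocytes grown from marrow precursors. Cells of 3 mice, a, b and c, were given 2 µM thiothixene, an antipsychotic that blocks dopamine receptors, or the solvent DMSO on day 6 of culture, and RNA was taken 24 h later. By the mouse letters in the sample titles, both treatments were applied to cells of every mouse, which makes 3 libraries with thiothixene and 3 with DMSO. No deletion, transgene or other agent is named for either group, and the sources used here give no strain, sex or age. The series title concerns continued uptake of dead cells, and the comparison asked here was whether transcripts of the autophagy machinery differed after the drug.

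Autophagy encloses cytoplasm in a double membrane that then fuses with lysosomes. The ULK kinase complex starts the process, and the VPS34 lipid kinase complex makes PI3P on the forming membrane. ATG9A vesicles and ATG2 proteins supply lipid, and a ubiquitin-like cascade joins LC3 and GABARAP proteins to the membrane lipid phosphatidylethanolamine. Cargo receptors such as p62, the product of Sqstm1, link cargo to lipidated LC3. In macrophages much of the same conjugation machinery acts in LC3-associated phagocytosis, where LC3 is placed on the single membrane of a phagosome that holds a particle or dead cell. That route uses Rubicon, encoded by Rubcn, and the phagocyte NADPH oxidase, and does without the ULK complex.

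The level of a gene is given as CPM, its count scaled to library size with edgeR's TMM factors, and a fold change is thiothixene over DMSO on the log2 scale with its standard error (SE). By edgeR's quasi-likelihood test with Benjamini-Hochberg adjustment at 0.05, 0 of the 36 genes passed, as did 0 of all 14856 tested genes (0%). At an unadjusted p under 0.05 there were 0 of the 36, beside 256 genes (1.72%) of all tested. The unadjusted p-values of the members in edgeR ran from 0.277 for Ulk2 to 0.998 for Pik3r4. DESeq2 and limma-voom also called 0 of the 36. DESeq2, run without edgeR's filter, called 2 (0.00815%) of the 24529 genes to which it gave an adjusted p. limma-voom called 0 of the 14856 genes (0%). Of the 36, 16 had a log2 fold change above 0, which is 44.4%, where 45.3% of all tested genes did. The median log2 fold change was -0.017 over the members and -0.043 over all tested genes.

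The libraries of a treatment lay far apart, and this touches each comparison that follows. The libraries held 10472349 to 22297520 counts in genes, the fewest in DMSO of mouse b, and a member had between 46 counts, for Map1lc3a in DMSO of mouse c, and 18776 counts, for Sqstm1 in thiothixene of mouse c. Correlations of log2 CPM across genes were 0.949 to 0.981 among the thiothixene libraries and 0.825 to 0.916 among the DMSO libraries, with the lowest between DMSO of mice b and c. Of 10 macrophage markers 9 were above 1 CPM in every library, while Itgam had 1 count in all, in thiothixene of mouse c. An annotated gene that overlaps Itgam, Gm49368, had 3 to 31 counts in thiothixene and 5 to 38 counts in DMSO libraries. The summed level of the macrophage markers was 11740 to 13380 CPM with thiothixene and 11060 to 18970 CPM with DMSO. The summed level of 11 neutrophil markers was 337.8 to 406 CPM with thiothixene and 369 to 862 CPM with DMSO, the highest in DMSO of mouse b, and Ly6g stayed under 1 CPM. Stromal markers, 8 in all with Lum at 0, summed to 57.5 to 301 CPM with thiothixene and 102 to 176 CPM with DMSO. Markers of B cells, T cells, dendritic cells, mast cells and erythroid cells summed to at most 14.2 CPM with thiothixene and 10.6 CPM with DMSO, and Ms4a1, Pax5, Cd3d, Mcpt4, Tpsb2, Fcer1a, Hbb-bs and Hbb-bt were at 0. The part of these markers in the results was not tested. In bulk RNA, fewer cells of a type and less RNA per cell cannot be told apart.

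TFEB and TFE3, transcription factors of autophagy and lysosome genes, are known to bind E-boxes with the core CACGTG. RefSeq windows of GRCm38.p6, from 250 bases before to 50 bases after a start, were matched by symbol for 30 of the 36 genes and gave 35 windows. CACGTG, which reads the same on both strands, was in 5 of these windows (14.3%), those of Atg3, Atg5, Atg7, Atg14 and Rubcn, and in 7.15% of all 32851 windows. The Atg7 window (chr6:114670846-114671145, plus strand) lies at an internal start, as the annotated gene begins at 114643097. The longer TCACGTGA, which contains that core and also reads the same on both strands, was in 1 member window, that of Atg3, and in 0.974% of all windows. The cyclic AMP response element TGACGTCA also reads the same on both strands. It shares the central ACGT with the others but does not contain CACGTG. It was in the windows of Atg5 and Atg16l2 (5.71%) and in 1.79% of all. A match is a run of letters and was not tied to binding here. The windows of Atg3 (chr16:45158579-45158878, plus strand) and Atg5 (chr10:44268089-44268388, plus strand) are shown. They were picked from the conjugation enzymes because they hold CACGTG, as does the Atg7 window, which is not shown. Atg3 encodes the E2-like enzyme of LC3 and Atg5 a subunit of its E3-like complex. Capitals mark each CACGTG, of which Atg3 holds 2 and Atg5 holds 1.
Atg3: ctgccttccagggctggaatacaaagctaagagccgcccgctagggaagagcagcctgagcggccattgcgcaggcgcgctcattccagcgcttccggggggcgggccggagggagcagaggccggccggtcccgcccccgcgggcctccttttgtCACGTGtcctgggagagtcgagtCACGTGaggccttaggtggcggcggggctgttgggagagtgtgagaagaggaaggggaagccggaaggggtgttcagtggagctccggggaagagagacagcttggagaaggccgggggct
Atg5: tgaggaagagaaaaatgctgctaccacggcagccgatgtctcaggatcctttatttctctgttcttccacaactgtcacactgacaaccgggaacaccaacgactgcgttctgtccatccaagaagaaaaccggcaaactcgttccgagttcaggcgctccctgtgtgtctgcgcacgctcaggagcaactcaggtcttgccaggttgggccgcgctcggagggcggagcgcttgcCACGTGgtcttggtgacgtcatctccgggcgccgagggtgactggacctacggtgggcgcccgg

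Among the initiation genes 3 of 5 were above 0 and 0 of 5 passed the test, with a median log2 fold change of 0.062. Ulk2, a kinase related to ULK1, had the smallest p of all 36 members and, per kb of exon, the highest level of this role. It measured 109, 75.5 and 75.0 CPM in mice a, b and c with thiothixene, in that order as for all genes that follow, against 145, 63.5 and 143 CPM with DMSO. DMSO of mouse b was the lowest of all and the other DMSO libraries the highest, so the groups overlapped. The log2 fold change of Ulk2 was -0.44 (SE 0.38), with a 95% interval from -1.31 to 0.43. Ambra1, a scaffold that binds Beclin 1 and regulates ULK1, measured 60.9, 71.6 and 64.7 CPM with thiothixene, against 67.4, 46.5 and 58.9 CPM with DMSO. Its groups overlapped too, and its log2 fold change was 0.19 (SE 0.27). Ulk1, the main initiating kinase, averaged 37.2 ± 4.93 CPM with thiothixene and 35.7 ± 16.4 CPM with DMSO (mean ± SD of 3 libraries each), at a log2 fold change of 0.062 (SE 0.38). Atg13, the subunit that links ULK1 to its scaffold, stood at 0.15 (SE 0.42) and Rb1cc1, which encodes that scaffold, FIP200, at -0.26 (SE 0.47). DMSO of mice b and c were at opposite ends for Rb1cc1, with 28.7 CPM in mouse b and 101 CPM in mouse c, and its thiothixene levels of 41.4 to 74.5 CPM lay between them.

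The PI3-kinase complex had 3 of 6 genes above 0, a median of 0.010 and 0 genes past the test. Uvrag, the subunit of the VPS34 complex used in endosome and autophagosome maturation, measured 109, 94.3 and 88.2 CPM with thiothixene, against 94.1, 54.7 and 108 CPM with DMSO. Its log2 fold change was 0.18 (SE 0.32), and the level in DMSO of mouse b was the lowest of the 6. Pik3c3, the catalytic subunit VPS34, measured 52.7, 42.3 and 35.7 CPM with thiothixene, against 44.2, 43.0 and 55.0 CPM with DMSO, a log2 fold change of -0.12 (SE 0.29). Becn1, encoding Beclin 1, was the most abundant gene of the complex per kb of exon. Its thiothixene libraries held 92.4, 92.2 and 92.3 CPM, against 78.9, 119 and 75.2 CPM in DMSO libraries. The thiothixene values thus differed by a factor of 1.003 from lowest to highest and the DMSO values by 1.58, with DMSO on both sides of thiothixene. The log2 fold change of Becn1 was 0.020 (SE 0.29). Of its annotated exon bases 43.9% overlap Cntd1 on the other strand, and no source says whether reads were counted by strand, so its level is uncertain. Pik3r4, the VPS15 subunit, averaged 41.1 ± 4.43 CPM with thiothixene and 41.1 ± 9.36 CPM in DMSO libraries (SD, n = 3 each). Atg14, which directs the complex to the site of autophagosome formation, averaged 17.8 ± 2.36 CPM with thiothixene and 18.6 ± 7.44 CPM with DMSO. Rubcn, whose product Rubicon restrains autophagy and is needed for LC3-associated phagocytosis, measured 69.9, 80.0 and 74.7 CPM with thiothixene, against 95.9, 51.9 and 64.6 CPM with DMSO. Its DMSO libraries again spanned all thiothixene libraries, and its log2 fold change was 0.079 (SE 0.31, 95% interval -0.62 to 0.78).

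Of the genes for lipid supply and PI3P binding 2 of 5 were above 0, the median was -0.051 and 0 passed. Atg9a encodes the scramblase of the vesicles that seed the membrane. It measured 19.2, 27.2 and 20.5 CPM with thiothixene, against 27.7, 8.94 and 14.1 CPM with DMSO, the largest positive log2 fold change of the 36 at 0.395 (SE 0.44). That value was 0.095 without DMSO of mouse b and 0.96 without DMSO of mouse a. The value of DMSO of mouse a exceeded all thiothixene libraries. Atg2b, a lipid transfer protein, measured 54.6, 44.3 and 45.4 CPM with thiothixene, against 47.9, 14.5 and 50.5 CPM with DMSO. DMSO of mouse b stood alone at the low end, and the log2 fold change was 0.35 (SE 0.45). Wipi2, which binds PI3P and recruits the ATG16L1 complex, measured 52.0, 52.5 and 54.9 CPM with thiothixene, against 58.3, 67.0 and 39.9 CPM with DMSO, a log2 fold change of -0.051 (SE 0.29). Its DMSO values lay on both sides of the thiothixene values. Atg2a, the paralog of Atg2b, stood at -0.12 (SE 0.42) and Wipi1, the paralog of Wipi2, at -0.21 (SE 0.295).

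The conjugation enzymes had 5 of 11 genes above 0, a median of -0.016 and 0 past the test. Atg16l1, the subunit that brings the E3-like complex to membranes in autophagy and in LC3-associated phagocytosis, measured 56.7, 42.5 and 40.44 CPM with thiothixene, against 40.42, 35.9 and 39.2 CPM with DMSO. It was the sole member whose groups did not overlap, by a margin in the second decimal, beside 988 genes (6.65%) of all tested in either direction, 576 (3.88%) with thiothixene higher and 412 (2.77%) with thiothixene lower. It was also the sole member with the same direction in 3 of 3 mice, with log2 differences of 0.49 in mouse a, 0.24 in mouse b and 0.045 in mouse c, where 7.49% of all tested genes were higher in 3 of 3 mice. No member was lower in 3 of 3 mice, beside 6.87% of all tested genes. The log2 fold change was 0.27 (SE 0.28, 95% interval -0.36 to 0.90). Atg16l2, its paralog, ran to the other side, at 43.7, 39.3 and 38.0 CPM with thiothixene, against 55.8, 38.8 and 47.8 CPM with DMSO. Its log2 fold change of Atg16l2 was -0.24 (SE 0.28), and its groups overlapped through DMSO of mouse b. Atg7, the E1-like enzyme that activates LC3 and ATG12, measured 83.3, 102 and 91.0 CPM with thiothixene, against 94.7, 122 and 62.1 CPM with DMSO. Its log2 fold change was -0.016 (SE 0.32), with DMSO of mice b and c at the 2 ends.

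Atg3, the E2-like enzyme of LC3, averaged 81.9 ± 0.604 CPM with thiothixene and 83.6 ± 13.3 CPM in DMSO libraries (SD, n = 3 each), a log2 fold change of -0.030 (SE 0.26, the smallest SE of the 36). Atg5, which is joined to ATG12, averaged 55.5 ± 12.5 CPM with thiothixene and 57.8 ± 10.7 CPM with DMSO. Atg12 averaged 79.0 ± 13.1 CPM with thiothixene and 75.7 ± 14.0 CPM with DMSO. Atg10, the E2-like enzyme of ATG12, stood at a log2 fold change of 0.006 (SE 0.35). The ATG4 proteases trim LC3 and GABARAP precursors and remove them from lipid. Their genes were at 0.13 for Atg4a (SE 0.295), -0.27 for Atg4b (SE 0.33), 0.11 for Atg4c (SE 0.39) and -0.11 for Atg4d (SE 0.47). Of these Atg4a was the least variable in DMSO, at 21.1, 20.1 and 19.2 CPM, and Atg4d the most variable in thiothixene, at 21.7, 48.4 and 45.4 CPM.

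All 5 LC3 and GABARAP genes had a log2 fold change below 0, with a median of -0.25, and 0 of 5 passed the test. This direction rested on a single library. Without DMSO of mouse b all 5 were above 0, with a median of 0.35, and without DMSO of mouse c all 5 were below 0, with a median of -0.56. The direction also turned for 3 of the 5 in limma-voom with library quality weights (median 0.027), a fit that called 25 of all tested genes (0.168%) and 0 of the 36. It turned for 1 of the 5 with the mouse as a replicate block (median -0.14) and for 1 in limma-voom (median -0.079). Map1lc3a, encoding LC3A, measured 3.66, 9.66 and 10.1 CPM with thiothixene, against 10.3, 31.5 and 1.96 CPM with DMSO. DMSO of mouse b was 16.05-fold above DMSO of mouse c, and the log2 fold change of -0.89 had the largest SE of the members, 0.855. Map1lc3b, encoding LC3B, the form most used as an autophagosome marker, measured 131, 126 and 116 CPM with thiothixene, against 117, 199.7 and 112 CPM with DMSO, a log2 fold change of -0.20 (SE 0.31).

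Gabarap, whose product acts with its paralogs late in autophagosome formation, measured 228, 360.2 and 314 CPM with thiothixene, against 268, 744 and 159.9 CPM with DMSO. The DMSO libraries differed 4.655-fold and the thiothixene libraries 1.58-fold from lowest to highest, and the log2 fold change was -0.38 (SE 0.54). Gabarapl1 measured 54.8, 79.7 and 68.7 CPM with thiothixene, against 78.9, 121 and 41.5 CPM with DMSO (-0.25, SE 0.40). Gabarapl2, also called GATE-16, measured 36.6, 37.5 and 39.5 CPM with thiothixene, against 35.5, 58.0 and 24.0 CPM with DMSO (-0.047, SE 0.36). In each of the 5 genes DMSO of mouse b was the highest of 6 libraries and DMSO of mouse c the lowest. Over all tested genes that order held for 2836 (19.1%), and over all 36 members for 9 (25%), the others being Becn1, Wipi2, Atg4b and Atg7. The reverse order, with DMSO of mouse c highest and of mouse b lowest, was seen for Rb1cc1, Atg4c, Nbr1 and Tax1bp1, beside 17.3% of all tested genes.

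**Figure D1:**
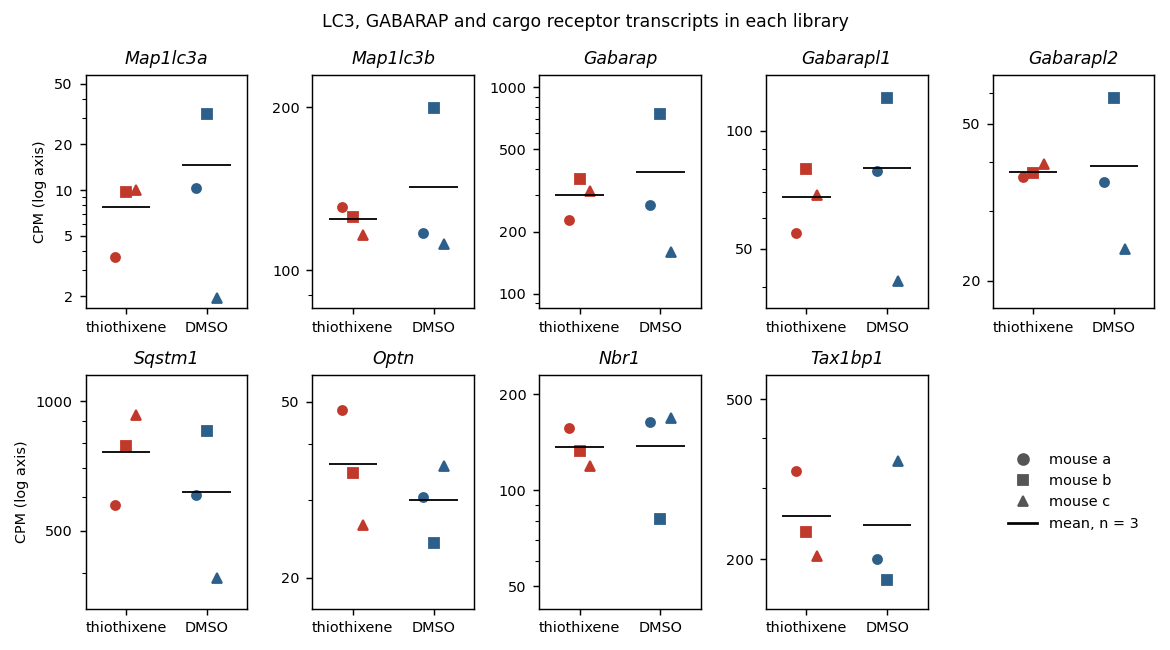
CPM on a log axis in each library for the 5 LC3 and GABARAP genes and the 4 cargo receptors, thiothixene left of DMSO, with a marker for each mouse and a line at the mean of 3 libraries. DMSO of mouse b is the top point and DMSO of mouse c the bottom point for each LC3 and GABARAP gene, with the thiothixene libraries between them.

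The cargo receptors had 3 of 4 genes above 0, a median of 0.17 and 0 past the test. Without thiothixene of mouse a 2 of 4 were above 0 and the median was -0.052, and without DMSO of mouse b it was 0.009. Sqstm1, encoding p62, measured 573, 787 and 926 CPM with thiothixene, against 606, 851 and 388 CPM with DMSO. Its thiothixene libraries of mice a and b were slightly below the DMSO libraries of the same mice, by 0.081 and 0.11 on the log2 scale, and in mouse c the thiothixene library was higher by 1.25. The log2 fold change over all was 0.31 (SE 0.36, 95% interval -0.51 to 1.13), and 0.067 without DMSO of mouse c. Optn, encoding optineurin, a receptor for ubiquitin-tagged mitochondria and bacteria, measured 47.8, 34.5 and 26.2 CPM with thiothixene, against 30.5, 23.9 and 35.7 CPM with DMSO, at 0.27 (SE 0.33). The highest of its 6 libraries was thiothixene of mouse a, and the groups overlapped. Nbr1, a receptor that works with p62, measured 157, 133 and 119.5 CPM with thiothixene, against 164, 81.4 and 168 CPM with DMSO, at -0.018 (SE 0.34). Tax1bp1, a receptor for ubiquitin-tagged cargo, measured 332, 234 and 204 CPM with thiothixene, against 200.5, 177 and 352 CPM with DMSO, at 0.077 (SE 0.36). For both, DMSO of mouse b was the lowest and DMSO of mouse c the highest library.

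**Figure D2:**
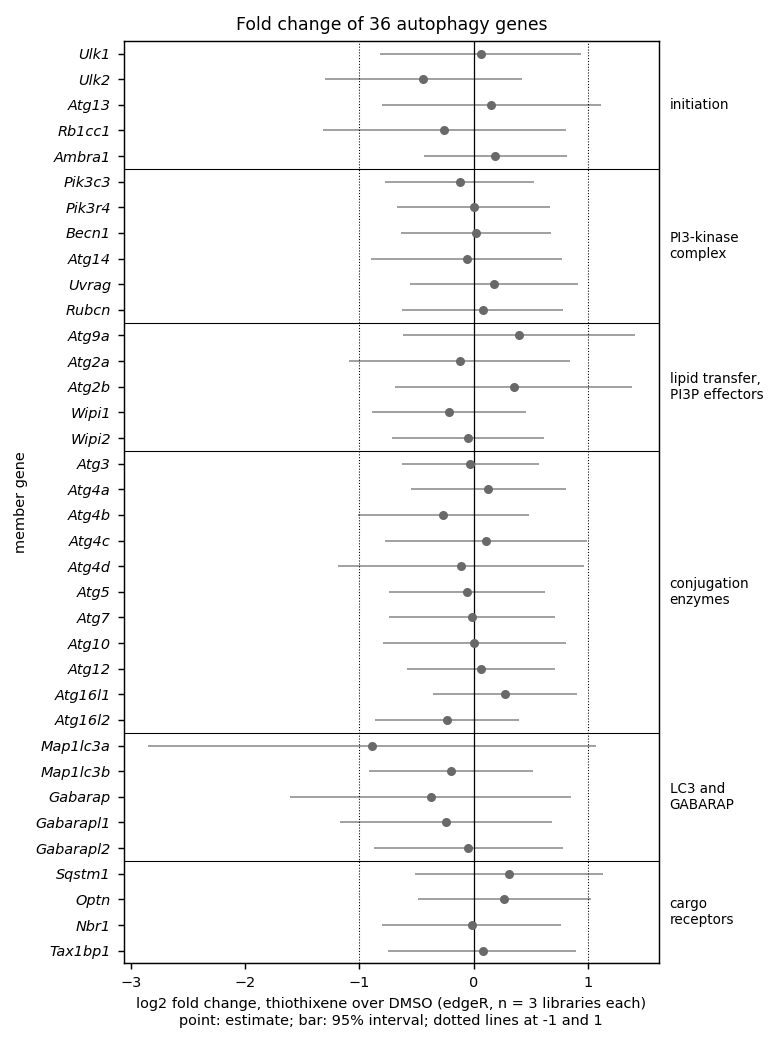
Log2 fold change of each of the 36 genes, thiothixene over DMSO, with its 95% interval in edgeR, fitted on treatment alone from 3 libraries a group. Each interval crosses 0, and 23 of 36 lie wholly between the dotted lines at -1 and 1.

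The intervals show what these libraries could resolve. For 23 of the 36 genes the 95% interval lay between -1 and 1 on the log2 scale, as it did for 27.4% of all tested genes, so that a doubling or halving lay outside it. The 13 others in the fit on treatment alone were Ulk2, Atg13, Rb1cc1, Atg9a, Atg2a, Atg2b, Atg4b, Atg4d, Map1lc3a, Gabarap, Gabarapl1, Sqstm1 and Optn. The log2 fold change was larger than its SE for 2 members, Ulk2 and Map1lc3a. Changes that lie inside these intervals were not excluded with 3 libraries a group. For 35 of 36 members the direction differed between mice, where it did for 85.6% of all tested genes. Thiothixene libraries spanned less than DMSO libraries for 30 of 36 members, beside 83.8% of all tested genes, with Pik3c3, Atg4a, Atg5, Atg12, Atg16l1 and Optn as the exceptions. The median ratio of highest to lowest library was 1.38 among thiothixene and 1.98 among DMSO libraries.

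Levels between genes were compared per length, as CPM per kb of annotated exon. Sqstm1 was the most abundant, at 227 ± 52.9 CPM per kb with thiothixene and 183 ± 69.0 CPM per kb with DMSO (SD, n = 3 each). Gabarap came next at 163 ± 36.4 CPM per kb with thiothixene and 212 ± 169 CPM per kb with DMSO, and these 2 genes did not differ beyond their spread. Gabarapl1 followed at 33.6 ± 6.21 CPM per kb with thiothixene and 40.0 ± 19.7 CPM per kb with DMSO. On this length Atg3, Tax1bp1 and Atg5 lay close to each other at 26.0 ± 0.192, 25.7 ± 6.69 and 23.6 ± 5.32 CPM per kb with thiothixene, and at 26.5 ± 4.22, 24.3 ± 9.48 and 24.6 ± 4.56 CPM per kb with DMSO. Map1lc3b stood at 16.5 ± 1.01 CPM per kb with thiothixene and 19.0 ± 6.57 CPM per kb with DMSO. Map1lc3a was lower, at 6.60 ± 3.04 CPM per kb with thiothixene and 12.4 ± 12.9 CPM per kb with DMSO, with a spread in DMSO wide enough to reach the level of Map1lc3b. The lowest on this length were Atg9a, at 3.87 ± 0.744 CPM per kb with thiothixene and 2.94 ± 1.69 CPM per kb with DMSO, and Atg2b, at 3.58 ± 0.420 CPM per kb with thiothixene and 2.80 ± 1.49 CPM per kb with DMSO. The order below Gabarap depended on the length used. Per kb of the longest transcript Sqstm1 and Gabarap stayed first and second, at 258 and 256 CPM per kb over all 6 libraries. Tax1bp1 then came next at 58.8 CPM per kb, above Gabarapl1 at 40.7 and Atg3 at 39.8, with Atg5 at 24.1, and the lowest were Atg14 at 4.88 and Atg9a at 4.65 CPM per kb. Exon overlap with another gene exceeded 10% for 6 members, Becn1, Uvrag, Atg9a, Atg4d, Gabarapl1 and Sqstm1, and their levels are uncertain for that reason.

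**Figure D3:**
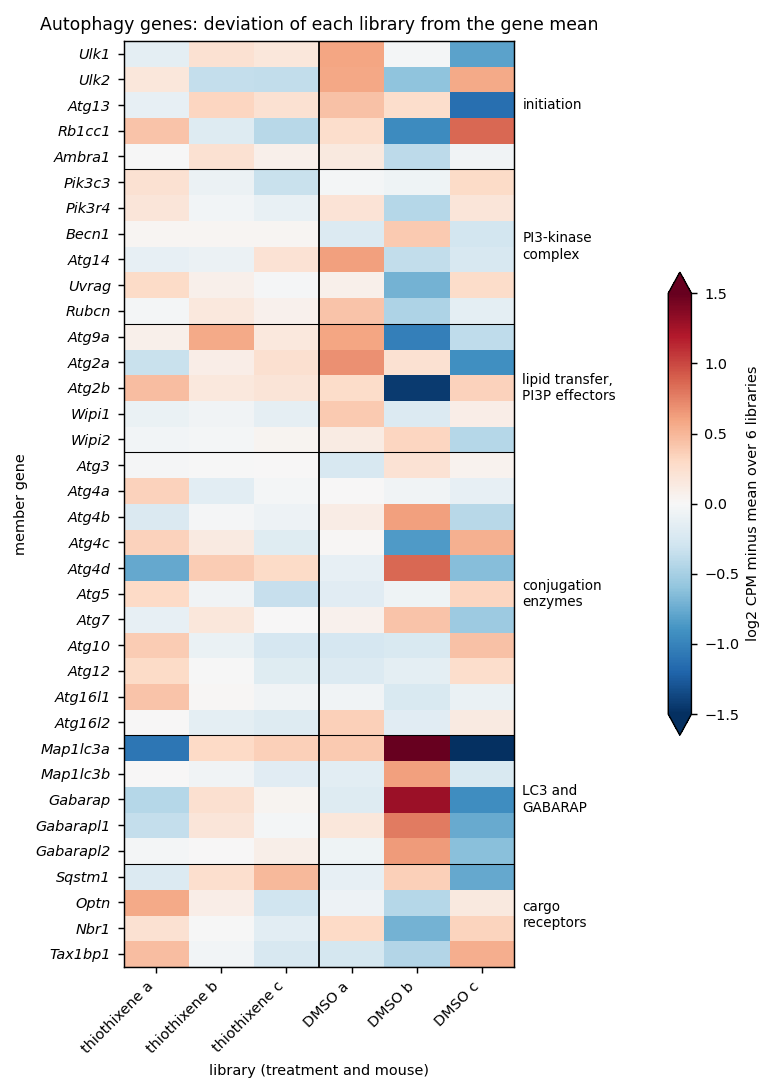
Log2 CPM of each library minus the gene's mean over 6 libraries, genes in rows by role and libraries in columns, thiothixene left of DMSO. The strongest colours are in DMSO of mice b and c, where the LC3 and GABARAP genes have median deviations of 0.79 and -0.76.

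Across the libraries the members did not move as a unit. The median deviation of the 36 genes from their own means was 0.006 in mouse a, 0.011 in mouse b and -0.021 in mouse c with thiothixene, against 0.092, -0.11 and -0.11 with DMSO. The roles differed within a library. In DMSO of mouse b the LC3 and GABARAP genes had a median deviation of 0.79, while the initiation genes stood at -0.395, the PI3-kinase complex at -0.40 and the cargo receptors at -0.44. In DMSO of mouse c the LC3 and GABARAP genes stood at -0.76, the lipid transfer and PI3P genes at -0.38 and the cargo receptors at 0.24. In thiothixene of mouse a they were at -0.36, -0.039 and 0.35, the order seen in DMSO of mouse c. Thiothixene of mice b and c were close to each other, with a SD of 0.16 across the 36 log2 differences, against 1.20 between DMSO of mice b and c.

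For pairs of libraries that lay far apart, the differences moved with base composition and, less, with length. Across the 36 members the log2 difference between thiothixene of mice b and a had a Spearman correlation of 0.79 with the GC content of the longest transcript and -0.28 with exon length. Between DMSO of mice b and c the correlations were 0.50 and -0.34. Over 14565 tested genes they were 0.59 and -0.20 for the thiothixene pair and 0.58 and -0.35 for the DMSO pair. For the close pair, thiothixene of mice b and c, the correlations across the 36 members were -0.14 with GC content and -0.05 with length, and the SD of 0.16 was as large with offsets for both. All points of a pair share the same 2 libraries, and the values are descriptions. Map1lc3a, at 63.1% GC the richest of the 36, had a difference of 3.93 between DMSO of mice b and c, and Rb1cc1, at 39.1% GC the poorest and at 14690 bases the longest, had -1.81. With offsets for GC content and length the SD of that difference over the members was 0.89, against 1.20 without them, and 0 of 36 members passed the test, where 0% of all tested genes passed. The median log2 fold change of the members with the offsets was -0.086. The part of GC content and length in the fold changes was not tested beyond this fit.

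**Figure D4:**
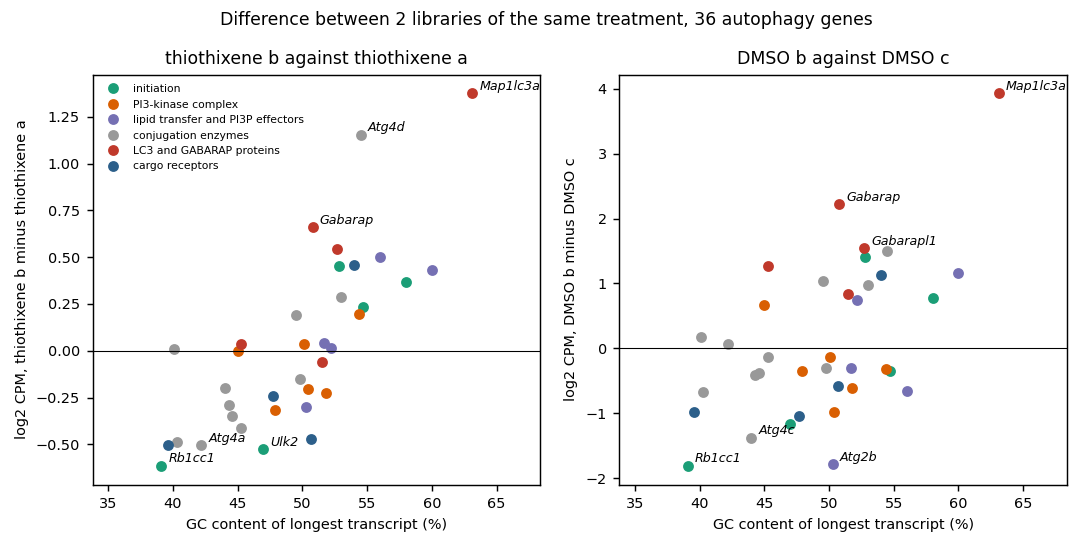
Difference in log2 CPM between 2 libraries of the same treatment against the GC content of the longest transcript in percent, for thiothixene of mice b and a (left) and DMSO of mice b and c (right), with a point for each of the 36 genes coloured by role. Map1lc3a is at the top right and Rb1cc1 at the bottom left of both plots.

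Thiothixene of mouse a and DMSO of mice b and c stood apart in this way, and the fit was repeated without them. That fit compared thiothixene of mice b and c with a lone DMSO library, from mouse a, assumed to vary like the others, so treatment and mouse cannot be told apart in it. The libraries were chosen after their values were seen and the thiothixene pair kept is the closest pair of all, so its calls describe these 3 libraries and are no test of the drug. It called 6 of 36 members (16.7%), beside 1105 of 15807 genes (6.99%). The log2 differences of the 6 were 0.50 for Sqstm1, -0.94 for Ulk2, -0.55 for Rb1cc1, -0.52 for Atg16l2, -0.51 for Atg2a and -0.38 for Nbr1. With all libraries 0 of these 6 were called.

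Further genes of the pathway were read from the same fit over all tested genes, and 0 of them passed the test. All 6 genes of the phagocyte NADPH oxidase, the enzyme that marks phagosomes for LC3, were below 0, with a median of -0.32. Ncf1, encoding the p47phox subunit, measured 215, 251 and 265 CPM with thiothixene, against 333, 381 and 219 CPM with DMSO, a log2 fold change of -0.35 (SE 0.30). As with the LC3 genes, the direction was not kept without DMSO of mouse b, where 3 of 6 were above 0 and the median was 0.12. In the fit without the 3 libraries that stand apart 3 of 6 were above 0, the median was -0.049 and 3 were called, beside 6.99% of all tested genes, with the same single DMSO library. Their log2 differences were -0.50 for Cybb, -0.36 for Ncf1 and 0.32 for Cyba.

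Of the autophagosome-lysosome fusion genes 11 of 16 were above 0 (median 0.080). Vamp8, a SNARE of that fusion, stood at -0.71 (SE 0.65) with 39.0, 87.1 and 86.7 CPM with thiothixene, against 65.9, 240.0 and 41.5 CPM with DMSO, so DMSO of mouse b was again the highest. Epg5, a tethering factor, stood at 0.38 (SE 0.43). Of the nutrient sensing genes upstream of ULK1 7 of 14 were above 0 (median -0.030). Tsc1, a restraint on mTORC1, measured 67.4, 70.1 and 66.2 CPM with thiothixene, against 60.7, 31.9 and 47.2 CPM with DMSO, at 0.54 (SE 0.31). Its groups did not overlap, beside the 6.65% of all tested genes, and it did not pass the test. Prkaa2, an AMPK catalytic subunit, was near the limit of detection at 0.493 to 1.38 CPM with thiothixene and 0 to 0.597 CPM with DMSO. Of the other assembly genes 4 of 9 tested were above 0 (median -0.057), with Atg101, a partner of ATG13, at -0.52 (SE 0.49). Of the other selective autophagy receptors 8 of 15 tested were above 0 (median 0.018). Tollip, a ubiquitin-binding receptor, measured 116, 128 and 118 CPM with thiothixene, against 99.1, 93.7 and 86.0 CPM with DMSO, at 0.38 (SE 0.25). Its groups did not overlap either. Tsc1 and Tollip were named for a small p in their lists, which favours groups that do not overlap. Such genes were not counted over the further pathway lists. Pink1, the kinase that marks damaged mitochondria, stood at -0.75 (SE 0.65).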

How the data were processed

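RNA of 6 mouse macrophage libraries was read from both fragment ends by Illumina sequencing, according to the labels' protocols. For each library the authors deposited raw read counts, whole numbers per gene without normalization, as 56691 rows of genes plus 5 summary rows. Reads that the counting assigned to no feature were 43.1% to 44.3% of all counts per library. Where they lie relative to genes is not given. Reads not aligned were 1.85% to 4.98%, and both stayed out of library sizes and tests. Per the submitters' processing notes the build was mm10 and the tools, with no stated role, were STAR 2.7.11b, Trim Galore 0.6.10, FastQC 0.11.8 and DESeq2 1.44. The counting tool, strand setting and gene models were not given in the sources used here. The counts leave out reads with more than 1 alignment or more than 1 gene as separate rows, which lowers genes with close copies or overlaps.

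Symbols came from a separate list of gene names, to which 52073 identifiers matched without version numbers and 4618 did not. Exon lengths and GC content came from GENCODE M21 (GRCm38). The quasi-likelihood test of edgeR 4.0.16 (R 4.3.3) was fitted robustly on treatment alone with TMM scaling, and p-values were adjusted by Benjamini-Hochberg over all 14856 tested genes at 0.05. The SE was obtained from the log2 fold change and its F statistic. Log2 CPM used a prior count of 2. Groups came from the treatment label and mice from the letter in each title, which names the mouse. Deviations from the group means correlated at -0.131, 0.318 and -0.301 for mice a, b and c. Alternatives were the replicate block, RLE factors, other filters, DESeq2 1.42.0, limma-voom (limma 3.58.1) and leaving out each library, and, chosen after the data were seen, library quality weights, offsets from 5-df splines of GC content and length and leaving out 3 libraries.

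Values in every library are given for the LC3, GABARAP and cargo receptor genes, for the 2 genes of smallest p and the gene of highest mean CPM in every other role, and for some others chosen after their values were seen. The 2 genes of smallest p of each further pathway list are named, except 1 gene that is not reported here. The members, lists and tests were chosen with earlier results of these data known.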

Additional observations from a re-analysis of the deposited data

How the results depend on the processing

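With 3 libraries a group, precision is limited by the spread between libraries, and DMSO of mouse b had the lowest depth. Over all genes 0 were called in edgeR with all 6 libraries, 1 without a low-count filter, 2 in DESeq2, 25 with library quality weights and 1105 without the 3 libraries that stand apart, and 0 in all other settings, the replicate block included. Member genes called were 0 in every setting except the last, with 6, and other pathway genes called were 0 except there, with 3. The median log2 fold change of the members was -0.086 with GC and length offsets, beside -0.017. Members with groups not overlapping were 1 to 8 when a library was left out (2 without thiothixene of mouse a, 6, 8 and 5 without DMSO of mice a, b and c, where 16.1%, 19.1%, 17.3% and 21.6% of all tested genes did not overlap) and 28 without the 3 libraries, where 76.5% of all tested genes did not overlap. The replicate block changed no call but gave a larger SE for most members. The cause of the other changes was not tested.

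Log2 fold changes of the members did not change sign in the 16 alternatives for 7 genes, Ambra1, Atg16l1, Atg16l2, Optn, Sqstm1, Ulk2 and Wipi1, though Optn was 0.0 without the 3 libraries. Those that follow are uncalled in the 6-library edgeR fit and changed sign. With the replicate block they were Pik3r4 0.022, Atg14 0.004, Atg7 0.032, Gabarapl2 0.043 and Nbr1 0.045. Without a low-count filter they were Pik3r4 0.026, Atg3 0.004, Atg7 0.023 and Nbr1 0.006. Atg10 was -0.008 with RLE size factors, -0.004 with the CPM filter and -0.001 in DESeq2. In limma-voom they were Atg2a 0.021, Atg7 0.045, Atg10 -0.004, Gabarapl2 0.095 and Nbr1 0.033. With library quality weights they were Ulk1 -0.25, Atg13 -0.018, Rubcn -0.19, Atg9a -0.008, Atg3 0.18, Atg4a -0.082, Atg4d 0.41, Atg7 0.066, Map1lc3b 0.027, Gabarap 0.29, Gabarapl2 0.11, Vamp8 0.27 and Epg5 -0.066. Without the 3 libraries they were Ulk1 -0.39, Atg13 -0.15, Uvrag -0.038, Rubcn -0.30, Atg9a -0.21, Atg2b -0.088, Atg3 0.25, Atg4a -0.093, Atg4c -0.025, Atg4d 0.47, Atg7 0.031, Map1lc3b 0.054, Gabarap 0.34, Gabarapl2 0.12, Vamp8 0.41 and Epg5 -0.23. With GC and length offsets they were Ulk1 -0.040, Becn1 -0.22, Rubcn -0.073, Atg12 -0.089 and Tax1bp1 -0.065, and with the offsets and the replicate block Ulk1 -0.022, Becn1 -0.056, Rubcn -0.038, Atg3 0.026, Atg12 -0.054, Gabarapl2 0.075 and Tax1bp1 -0.028.

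Leaving out a library gave ranges across 0 for Ulk1 -0.23 to 0.47, Atg13 -0.20 to 0.44, Rb1cc1 -0.61 to 0.20, Pik3c3 -0.28 to 0.011, Pik3r4 -0.18 to 0.11, Becn1 -0.098 to 0.26, Atg14 -0.24 to 0.33, Uvrag -0.062 to 0.38, Rubcn -0.10 to 0.37, Atg2a -0.46 to 0.26, Atg2b -0.032 to 0.62, Wipi2 -0.23 to 0.11, Atg3 -0.14 to 0.082, Atg4a -0.028 to 0.24, Atg4b -0.48 to 0.029, Atg4c -0.18 to 0.46, Atg4d -0.39 to 0.42, Atg5 -0.24 to 0.10, Atg7 -0.23 to 0.23, Atg10 -0.20 to 0.28, Atg12 -0.069 to 0.23, Map1lc3a -1.41 to 0.35, Map1lc3b -0.35 to 0.12, Gabarap -0.75 to 0.49, Gabarapl1 -0.56 to 0.17, Gabarapl2 -0.30 to 0.35, Nbr1 -0.29 to 0.15, Tax1bp1 -0.14 to 0.44, Vamp8 -1.10 to 0.41, Atg101 -0.87 to 0.13 and Pink1 -1.21 to 0.027. The ranges that did not cross 0 were Ambra1 0.059 to 0.33, Atg9a 0.095 to 0.96, Atg16l1 0.11 to 0.37, Atg16l2 -0.36 to -0.095, Optn 0.021 to 0.46, Sqstm1 0.067 to 0.62, Ulk2 -0.74 to -0.25 and Wipi1 -0.35 to -0.045.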
